A study of Mus musculus with 23 samples.

Results

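Cerebellar tumours induced with CRISPR/Cas9 against Ptch1 were compared with cerebellar tumours of GTML mice on 7 of the 23 arrays of the series. The 7 arrays were chosen by their titles alone: 3 hold CRISPR-Ptch1 tumours and 4 hold GTML tumours. RNA levels come from whole-genome Affymetrix arrays as log2 values after RMA (robust multi-array averaging), with 1 probe set for each of 18194 genes. The comparison asks how the transcripts of a tumour begun by loss of Ptch1 differ from those of a tumour begun by overexpression of Mycn.

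Of the CRISPR-Ptch1 tumours, 2 arose after in utero electroporation of the embryonic cerebellum of wild-type mice (EP) and 1 after in vivo transfection of the neonatal cerebellum (TF). The study's results give a Trp53-/- background for the transfected tumours profiled on arrays, so the TF tumour also lacked Trp53. The TF tumour stands alone for its route of delivery, its age at induction and its genotype. GTML tumours, described in the labels as sporadic and as driven by the Mycn oncogene, come from mice that carry MycN and luciferase behind a tetracycline-responsive element (TRE), with the promoter of Glt1 (now Slc1a2, a glial glutamate transporter) as the driver. The study takes its Mycn model to represent Group 4 medulloblastoma and a Myc model to represent Group 3. All samples carry the strain label CD1, whereas the methods name C57BL/6N for the transfected newborns. Further tumours of this kind that the study describes were not analysed here. Levels in 4 Ptch1+/- tumours, 5 MERP tumours (Atoh1-CreERT2;Ptch1 fl/fl), 3 samples of granule neuron precursors (GNP) and 4 adult cerebella are given beside the comparison where they bear on a gene of it. The labels give no age, sex or hybridization batch for a single tumour, nor whether each array is a separate animal. For gene differences, p-values rest on the within-group spread of each gene over all groups of the series, not the compared tumours alone. Given the gaps in the labels, that spread may in part be technical.

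Sonic hedgehog (SHH), secreted by Purkinje cells, binds the receptor PTCH1 on granule neuron precursors, which releases SMO and lets the GLI transcription factors switch on targets such as Gli1, Ptch1 itself, Hhip, Mycn and the D cyclins. Loss of Ptch1 leaves SMO without its brake, and such cells may go on dividing in the external granule layer instead of maturing into granule neurons. Medulloblastomas outside the SHH class, Group 3 above all, are known for a set of retinal photoreceptor genes that the homeobox factors OTX2 and CRX and the leucine zipper factor NRL regulate in the eye. MYCN and its relative MYC raise genes of ribosome production, nucleotide and one-carbon metabolism and glycolysis.

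In the fit across all genes (limma, Benjamini-Hochberg adjusted p under 0.05), 4127 of 18194 genes (22.7%) were higher in CRISPR-Ptch1 tumours and 2562 (14.1%) were lower, together 36.8%. In 21.5% of genes every CRISPR-Ptch1 tumour was above every GTML tumour, and in 14.6% every one was below. At least 4-fold, 609 genes were higher and 217 lower. The median log2 difference over all genes was 0.01. Centring the arrays on the median of the genes, in place of using the values as deposited, moved that median to -0.36 and turned the split to 2306 higher and 8175 lower, so small differences have no fixed direction here, and the large ones described below are read against that shift. With such a share of all genes called, a count within a gene group is read beside 22.7% and 14.1%.

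The arrays of the groups also differed in their controls. Poly-A spike-in probe sets averaged 7.66 to 7.89 on the CRISPR-Ptch1 arrays and 8.20 to 10.50 on the GTML arrays, and the gap between the 3' and the 5' probe set of Gapdh was -0.08 to -0.02 against 0.58 to 0.87. Neither range overlapped (exact two-sided permutation p = 0.057 for each, the smallest that 3 against 4 arrays allow). The median over genes was 7.46 to 7.55 on CRISPR-Ptch1 arrays and 6.99 to 7.36 on GTML arrays. The part of these differences in the gene results was not tested, and array handling and tumour type cannot be told apart with each group on its own arrays. GTML 4 lay nearest to the CRISPR-Ptch1 arrays in its spike-ins (8.20) and was therefore also used as the lone GTML tumour, a choice made after seeing the data, which left 3702 called genes, 1931 higher and 1771 lower. Of these, 3263 were also called with all GTML tumours, each in the same direction. Both fits share GTML 4 and the CRISPR-Ptch1 arrays, so this agreement in direction is in part built in. The Gapdh gap of GTML 4 (0.58) still lay outside the CRISPR-Ptch1 range. Arrays of a group correlated at 0.973 to 0.994 (CRISPR-Ptch1) and 0.970 to 0.985 (GTML), and arrays of different groups at 0.913 to 0.942.

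En2, Neurod1 and Mki67 were read beside the labelled tissue, and they are not a full check of it. En2, a homeobox gene of the midbrain and cerebellum, read 10.54, 10.80 and 10.34 in the CRISPR-Ptch1 tumours and 10.14, 10.54, 10.64 and 10.87 in the GTML tumours. Neurod1, a transcription factor of differentiating granule neurons, read 13.71, 13.91 and 11.91 in CRISPR-Ptch1 and 13.35, 13.51, 13.73 and 13.55 in GTML tumours. Mki67, the proliferation antigen, read 12.43, 12.57 and 12.56 against 12.27, 12.47, 12.19 and 11.99. The values of each gene overlapped between the groups, and none passed the test (adjusted p = 0.97, 0.38 and 0.43), which does not show equal levels. Mki67 marks dividing cells of any tissue. Of the granule neuron precursor genes described below, 10 of 18 were lower in GTML tumours and 3 were higher.

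Before the values, the upstream sequences of 5 photoreceptor genes are shown, because these genes had a large excess in GTML tumours and their promoters hold the letters TAATCC, the core recognised by CRX and OTX2. The sequences are the 250 bases before the transcription start in RefSeq (GRCm38.p6), written 5′ to 3′ along the gene's strand, with TAATCC or its reverse complement GGATTA in capitals. Sag lies on chr1:87803430-87803679 (+), Gnat2 on chr3:108092816-108093065 (+), Crx on chr7:15879956-15880205 (-), Abca4 on chr3:122044210-122044459 (+) and Aipl1 on chr11:72037510-72037759 (-).
Sag: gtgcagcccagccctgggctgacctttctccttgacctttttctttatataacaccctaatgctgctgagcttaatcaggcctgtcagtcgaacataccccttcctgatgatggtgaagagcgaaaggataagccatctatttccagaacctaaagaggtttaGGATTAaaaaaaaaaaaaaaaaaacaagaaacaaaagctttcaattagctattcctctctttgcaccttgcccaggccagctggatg
Gnat2: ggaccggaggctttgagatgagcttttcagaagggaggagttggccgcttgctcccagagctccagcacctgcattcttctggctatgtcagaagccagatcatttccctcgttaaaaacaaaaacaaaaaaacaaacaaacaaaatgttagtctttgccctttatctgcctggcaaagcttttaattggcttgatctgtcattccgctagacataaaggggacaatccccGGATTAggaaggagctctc
Crx: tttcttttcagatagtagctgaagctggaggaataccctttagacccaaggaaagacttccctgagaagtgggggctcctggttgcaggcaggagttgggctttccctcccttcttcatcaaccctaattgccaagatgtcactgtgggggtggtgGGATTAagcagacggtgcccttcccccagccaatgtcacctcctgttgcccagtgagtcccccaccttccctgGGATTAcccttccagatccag
Abca4: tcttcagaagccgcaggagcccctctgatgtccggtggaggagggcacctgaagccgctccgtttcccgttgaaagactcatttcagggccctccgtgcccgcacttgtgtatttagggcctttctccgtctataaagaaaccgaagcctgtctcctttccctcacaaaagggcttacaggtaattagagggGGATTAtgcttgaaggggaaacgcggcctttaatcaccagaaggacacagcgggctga
Aipl1: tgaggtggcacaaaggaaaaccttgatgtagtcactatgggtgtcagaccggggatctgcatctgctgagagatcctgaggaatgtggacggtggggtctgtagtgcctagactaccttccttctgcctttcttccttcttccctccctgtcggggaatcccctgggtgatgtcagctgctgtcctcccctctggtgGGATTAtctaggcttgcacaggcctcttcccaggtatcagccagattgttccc

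The match began 87 bases before the start in Sag, 19 in Gnat2, 94 and 21 in Crx, 58 in Abca4 and 53 in Aipl1. Over all 32851 promoters of the table, 6.25% held the letters on either strand. Promoters were found for 22 of the 31 photoreceptor and Group 3 genes measured, 25 promoters in all, of which 9 held them (36%): Sag, Gnat2, Crx, Abca4, Aipl1, Gngt1, Otx2, Cnga1 and Gucy2e. Of these 9 genes, 7 were lower in CRISPR-Ptch1 tumours, and Cnga1 and Gucy2e were not called. Of all 22 genes with a promoter, 18 were lower, so genes with the letters were not lower more often than the rest. A link between the letters and the difference was not tested. The E-box CACGTG, to which MYC and MYCN bind with MAX, stood in 6.02% of all promoters. It stood in 11 of 31 promoters of the MYC targets outside the ribosome and in 3 of 44 of the ribosome production genes. For the genes called lower, these counts were 5 of 18 and 1 of 26 promoters. The GLI site GACCACCCA was in 0.225% of all promoters and in none of the 4 promoters found for the SHH targets. A match is a description of letters in this window and not a bound site.

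The SHH target genes named by the study were higher in CRISPR-Ptch1 tumours, 7 of 7, with a median log2 difference of 3.61 against 0.01 over all genes. They were named by the study with these samples in view and are not independent evidence of a direction. Gli1, the transcription factor that GLI activity itself induces, read 9.47 and 9.01 in the EP tumours and 10.04 in the TF tumour, and 4.22, 4.60, 4.52 and 4.65 in the GTML tumours. The GTML values lie at the lower quartile of their arrays (4.48 to 4.61), so the log2 difference of 5.004 (SE 0.24, adjusted p = 1.5e-12) is a lower limit. Sfrp1, a secreted WNT antagonist, read 10.96, 10.32 and 12.37 against 5.50, 6.93, 5.03 and 5.53, with the TF tumour highest, and differed by 5.47 (SE 0.39, adjusted p = 8.6e-10).

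Ptch1, the targeted gene, read 13.09, 12.78 and 13.07 in CRISPR-Ptch1 tumours and 10.62, 9.70, 10.61 and 10.91 in GTML tumours, a difference of 2.52 (SE 0.21, adjusted p = 8.0e-09). Its probe set with the highest SD over the series gave -0.66 instead. An edited allele may still be transcribed, so the level of this probe set does not show the edit, and its other probe sets were low throughout (4.89 to 6.96 over both). Boc, a co-receptor that presents SHH to PTCH1, read 10.06, 9.84 and 10.78 against 6.69, 6.69, 6.31 and 6.78. Its difference was 3.61 (SE 0.21, adjusted p = 2.4e-11), and the groups did not overlap.

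Hhip, a decoy receptor induced by the pathway, was the least even of the targets, with 8.76, 8.0005 and 9.79 against 5.08, 7.11, 4.42 and 6.32 and a difference of 3.12 (SE 0.53, adjusted p = 8.5e-05). GTML 2 was the highest GTML tumour and EP 2 the lowest CRISPR-Ptch1 tumour, and the groups did not overlap. Gli2, the main activator of the pathway, read 11.26, 10.96 and 11.58 against 8.58, 9.14, 9.39 and 9.74. Its difference was 2.06 (SE 0.21, adjusted p = 1.5e-07), and its other probe set gave 1.75.

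Mycn is both an SHH target and the oncogene of the GTML model. Its probe set with the highest mean read 12.37, 12.07 and 12.57 in CRISPR-Ptch1 tumours and 7.69, 7.15, 8.39 and 8.08 in GTML tumours, that is 22.8-fold higher in the former (4.51, SE 0.21, adjusted p = 1.0e-12). The next probe set read 9.36, 9.25 and 9.82 against 9.17, 8.96, 8.68 and 8.60, and the last read 6.54, 6.76 and 6.71 against 7.05, 7.30, 6.88 and 6.77. The probe sets thus disagreed on the size and on the direction of the difference. Whether any of them can detect the transgene is not given in the sources used here, so none checks the GTML label.

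**Figure D1:**
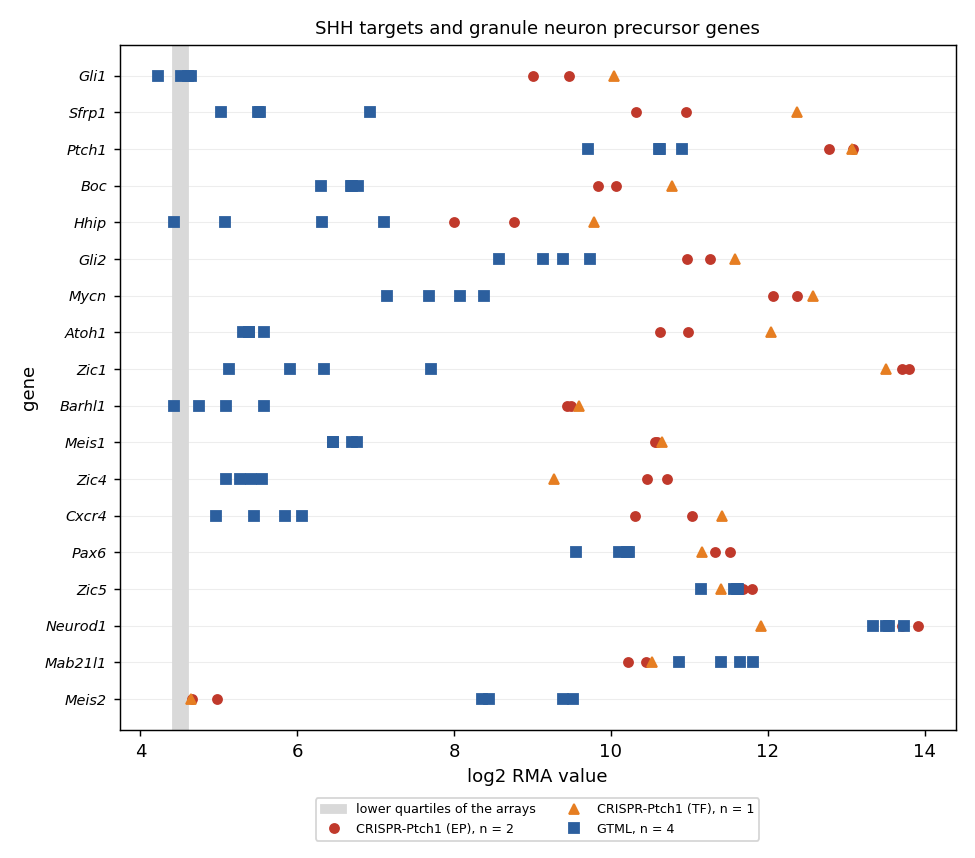
Log2 RMA value (x axis) of the 7 SHH targets named by the study and of 11 granule neuron precursor genes (y axis) in each of the 3 CRISPR-Ptch1 tumours (circles for EP, triangle for TF) and the 4 GTML tumours (squares), with the range of the arrays' lower quartiles shaded. The groups are apart for all 7 targets, Gli1 of the GTML tumours lies in or beside the shaded band, Zic5 and Neurod1 overlap, and Mab21l1 and Meis2 are higher in GTML tumours.

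Among receptors, ligands and co-receptors, 5 of 13 genes were higher and 1 was lower, the list's median difference being -0.04, a value whose sign changed when all probe sets were centred. With the genes centred the list had 5 higher and 7 lower. Ptch1, Boc and Hhip, already counted among the targets named by the study, are among the higher genes of this list. Smo, which carries the signal inwards, read 10.42, 10.16 and 10.79 against 8.72, 8.01, 8.29 and 6.93, lowest in GTML 4, and differed by 2.47 (SE 0.27, adjusted p = 3.2e-07). Gas1, a membrane-bound co-receptor, differed by 2.16 (SE 0.17, adjusted p = 3.6e-09). The third co-receptor, Cdon, was not called, with 7.78, 7.34 and 5.91 against 7.87, 7.04, 7.53 and 7.87. The ligands Shh, Ihh and Dhh stayed between 4.62 and 5.96 in every tumour of both groups and were not called. The lower gene was Hhat, the enzyme that puts palmitate on the ligand (-0.997, SE 0.20, adjusted p = 5.4e-04).

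Of the GLI factors and regulators, 9 of 16 were higher and none was lower, 6 and 1 with GTML 4 as the lone GTML tumour and 5 and 2 with the genes centred. Gli1 and Gli2, already counted among the targets named by the study, are among the 9 higher genes. Sufu, which holds GLI proteins back, read 9.77, 9.62 and 9.57 against 8.17, 7.86, 8.11 and 8.22 and differed by 1.56 (SE 0.20, adjusted p = 2.4e-06). Evc, a ciliary partner of SMO, read 7.67, 7.51 and 7.92 against 5.06, 5.49, 5.25 and 4.97 and differed by 2.50 (SE 0.24, adjusted p = 4.7e-08). Gpr161, a ciliary inhibitor of the pathway, differed by 1.41 (SE 0.23, adjusted p = 4.7e-05), and Gli3, mostly a repressor, by 1.22 (SE 0.38, adjusted p = 0.016). Positive and negative members of the pathway were thus among the genes that were higher. Prkaca and Spop, which direct GLI proteins to processing and decay, were not called (adjusted p = 0.98 for each).

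Granule neuron precursor identity separated the groups further: 10 of 18 genes were higher, 3 were lower, and the median was 1.298. Zic1, a zinc finger factor of granule neurons, had the largest excess of any gene in CRISPR-Ptch1 tumours, with 13.71, 13.81 and 13.50 against 5.13, 6.34, 5.90 and 7.71. GTML 4 was the highest of the GTML tumours and still far below every CRISPR-Ptch1 tumour, and the difference was 7.41 (SE 0.33, adjusted p = 4.2e-13). Atoh1, which defines the precursors, read 10.98, 10.63 and 12.04 against 5.57, 5.31, 5.38 and 5.39. The GTML values lay close together, and the difference was 5.80 (SE 0.29, adjusted p = 2.8e-12).

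Barhl1 (9.49, 9.44 and 9.59 against 4.43, 5.09, 5.58 and 4.74) and Meis1 (10.57, 10.59 and 10.65 against 6.46, 6.70, 6.76 and 6.46), homeobox genes of the same lineage, differed by 4.54 (SE 0.21, adjusted p = 8.7e-13) and 4.01 (SE 0.13, adjusted p = 5.6e-15). Zic4 differed by 4.82 (SE 0.28, adjusted p = 2.5e-11) and Cxcr4, the chemokine receptor that keeps precursors at the brain's surface, by 5.34 (SE 0.38, adjusted p = 7.7e-10). Pax6, which GTML tumours also expressed, differed less, with 11.32, 11.52 and 11.16 against 9.55, 10.11, 10.23 and 10.21 (1.31, SE 0.17, adjusted p = 2.8e-06). Zic5 read 11.68, 11.79 and 11.41 against 11.15, 11.62, 11.60 and 11.57, Insm1 11.40, 11.31 and 11.78 against 11.61, 11.71, 11.60 and 11.82, and neither passed the test (adjusted p = 0.54 and 0.66).

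The opposite direction held for Meis2, a close relative of Meis1, which read 4.65, 4.97 and 4.64 in CRISPR-Ptch1 tumours and 9.39, 8.36, 9.52 and 8.44 in GTML tumours. The CRISPR-Ptch1 values were near background, so the fall of 4.17 (SE 0.25, adjusted p = 5.4e-11) on the log2 scale is a lower limit, and all 4 probe sets of the gene gave a difference between -4.22 and -3.32. Mab21l1 and Barhl2 were lower by 1.04 (SE 0.18, adjusted p = 1.2e-04) and 0.68 (SE 0.17, adjusted p = 0.0036).

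Over the genes of the SHH-type signature, 18 of 29 were higher and 4 lower (median 1.49), 10 and 3 with GTML 4 as the lone GTML tumour. Not all 29 genes are particular to the SHH class: the list, written from general knowledge, includes Fstl5 (2.16, higher) and Prdm6 (-0.47, lower). The 18 higher genes include Gli1, Gli2, Sfrp1, Hhip, Boc and Mycn, already counted among the targets named by the study. Sox18, a SOX factor best known from vessels, read 10.73, 10.08 and 12.32 against 6.15, 7.19, 5.97 and 7.15 and differed by 4.43 (SE 0.44, adjusted p = 1.0e-07). Eya1, a transcriptional cofactor and phosphatase, read 7.58, 7.44 and 7.57 against 5.86, 4.76, 5.74 and 7.31 (1.61, SE 0.47, adjusted p = 0.01), GTML 4 lying just below the lowest CRISPR-Ptch1 tumour. Nrp2, a semaphorin receptor, went the other way, with 7.62, 7.87 and 6.99 against 11.13, 10.82, 11.53 and 11.50 (-3.75, SE 0.21, adjusted p = 2.1e-11). Igfbp2, which binds insulin-like growth factors, was lower by 1.66 (SE 0.32, adjusted p = 3.2e-04).

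Photoreceptor and Group 3 genes gave the counterpart. Of 31 measured, 23 were lower in CRISPR-Ptch1 tumours, none was higher, and the median was -1.09. The mean over the list was 4.87 to 4.93 on the CRISPR-Ptch1 arrays and 6.34 to 7.05 on the GTML arrays. Where a CRISPR-Ptch1 value lay near the lower quartile of its array (4.42 to 4.44), as for Crx, Nrl, Sag and Gnat2, the difference is a lower limit.

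Among the regulators, Crx read 4.56, 4.94 and 5.05 in CRISPR-Ptch1 tumours and 8.80, 9.29, 9.95 and 9.14 in GTML tumours, lower by 4.45 (SE 0.19, adjusted p = 3.6e-13). Nrl, the rod factor, read 5.16, 4.91 and 4.47 against 10.70, 9.90, 10.86 and 9.40 and was lower by 5.37 (SE 0.26, adjusted p = 2.1e-12). Otx2, which precedes both in the retina and also serves in the rhombic lip, was expressed in both groups, with 10.91, 9.44 and 9.90 against 13.19, 12.83, 13.09 and 13.08. It was lower by 2.96 (SE 0.46, adjusted p = 3.0e-05), and EP 1 was the highest CRISPR-Ptch1 tumour.

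Effectors of the light response followed. Sag, which encodes rod arrestin, read 4.86, 4.70 and 5.05 against 10.26, 10.28, 10.99 and 12.12, highest in GTML 4, and was lower by 6.04 (SE 0.28, adjusted p = 6.2e-13). Gnat2, the transducin subunit of cones, read 4.24, 4.29 and 4.53 against 9.57, 8.70, 9.19 and 9.83 and was lower by 4.97 (SE 0.19, adjusted p = 6.0e-14). Abca4, a retinoid transporter of the outer segment, read 5.56, 5.45 and 5.71 against 10.70, 9.73, 10.69 and 10.55 and was lower by 4.85 (SE 0.22, adjusted p = 4.4e-13). The promoters of these genes, of Crx and of Aipl1 are those shown above.

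Aipl1, a chaperone of phosphodiesterase 6, varied more within the GTML tumours (7.80, 8.02, 10.40 and 9.50) and read 5.18, 5.33 and 5.23 in the CRISPR-Ptch1 tumours. Its log2 difference was -3.69 (SE 0.37, adjusted p = 1.2e-07). The phosphodiesterase subunits Pde6b, Pde6c and Pde6g were lower by 2.28 (SE 0.36, adjusted p = 4.3e-05), 2.56 (SE 0.39, adjusted p = 2.2e-05) and 2.56 (SE 0.32, adjusted p = 2.3e-06), with GTML 2 or GTML 4 lowest among the GTML tumours. Genes of the terminal photoreceptor did not all share in this: Rcvrn, Gnat1, Opn1mw, Impg1, Cnga1 and Gucy2e read between 3.53 and 5.31 in all 7 tumours and were not called.

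Further retinal genes outside the list were among those with the largest deficit in CRISPR-Ptch1 tumours. Mpp4, a scaffold of the photoreceptor synapse, read 4.12, 4.43 and 3.76 against 11.37, 8.93, 12.34 and 11.62 and led with a fall of 6.96 (SE 0.45, adjusted p = 2.2e-10). Cdhr1, a photoreceptor cadherin, read 5.57, 4.98 and 6.35 against 11.43, 12.94, 11.16 and 11.60, Mak, a kinase of the photoreceptor cilium, 4.66, 4.28 and 4.41 against 10.86, 9.65, 11.21 and 10.49, and Cplx3, a complexin of ribbon synapses, 5.31, 4.96 and 4.78 against 10.53, 10.68, 11.56 and 10.75. Rp1l1, a microtubule protein of the outer segment, and Rorb, a nuclear receptor of the retina, were lower by 5.73 (SE 0.15, adjusted p = 8.3e-17) and 5.41 (SE 0.40, adjusted p = 1.3e-09). Otx2os1, transcribed opposite to Otx2, was lower by 6.01 (SE 0.53, adjusted p = 1.6e-08). Tph1, which makes serotonin in the pineal gland, was lower by 3.91 (SE 0.46, adjusted p = 9.8e-07), with values between 6.45 and 9.69 in GTML tumours. Of the 5 pineal and retinal pigment genes measured, Tph1 was lower, Rlbp1 was higher and the other 3 were not called (median -0.02).

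**Figure D2:**
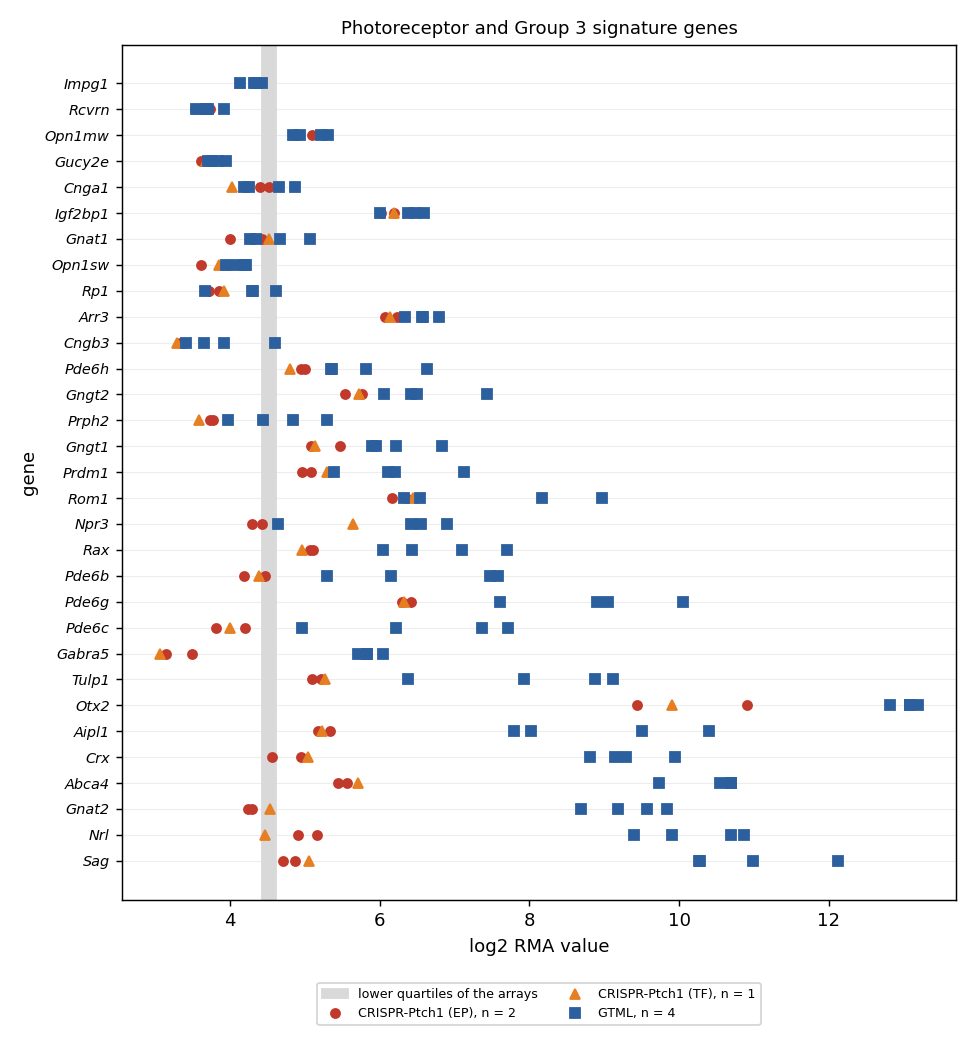
Log2 RMA value (x axis) of the 31 photoreceptor and Group 3 genes measured (y axis, ordered by their difference) in 3 CRISPR-Ptch1 and 4 GTML tumours, with the range of the arrays' lower quartiles shaded. The groups stand widest apart for Sag, Nrl, Gnat2, Abca4 and Crx, and most genes at the top overlap between the groups.

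In 4 Ptch1+/- and 5 MERP tumours, Sag read 4.93 ± 0.10 and 5.41 ± 0.13 (mean ± SD), Nrl 4.50 ± 0.38 and 4.81 ± 0.15 and Crx 4.95 ± 0.14 and 4.85 ± 0.23. CRISPR-Ptch1 tumours read 4.87 ± 0.17 for Sag, 4.85 ± 0.35 for Nrl and 4.85 ± 0.26 for Crx. Against MERP, the differences of CRISPR-Ptch1 tumours were -0.54 (SE 0.26, adjusted p = 0.19) for Sag and 0.03 (SE 0.25, adjusted p = 0.95) for Nrl, and against Ptch1+/- tumours -0.06 (SE 0.28, adjusted p = 0.89) and 0.34 (SE 0.26, adjusted p = 0.34).

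Factors of the rhombic lip and of unipolar brush cells split, with 5 of 14 higher and 4 lower. Eomes, a marker of unipolar brush cells, read 7.64 and 7.82 in the EP tumours, 5.03 in the TF tumour and 3.62, 4.51, 4.38 and 4.24 in the GTML tumours, with the EP tumours farthest above them, a difference of 2.64 (SE 0.44, adjusted p = 6.2e-05). Wls, needed for WNT secretion at the rhombic lip, differed by 2.16 (SE 0.43, adjusted p = 4.5e-04). Lmx1a was near background in all 7 tumours (3.65 to 4.07). With GTML 4 as the lone GTML tumour, 1 gene was called higher and 3 lower, with the TF tumour alone 1 and 4, and without EP 2, 2 and 4. Pax3, a dorsal patterning factor outside this list, was lower in CRISPR-Ptch1 tumours, with 6.76, 6.06 and 6.34 against 9.44, 9.82, 9.86 and 9.64 (-3.30, SE 0.37, adjusted p = 5.7e-07).

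Myc and Mycl were higher in CRISPR-Ptch1 tumours, as was the brightest probe set of Mycn, while most of the called target genes of the family were lower. Myc read 9.98, 9.01 and 10.07 against 5.79, 5.95, 6.43 and 6.85 (3.43, SE 0.32, adjusted p = 4.5e-08) and Mycl 10.91, 10.59 and 10.97 against 7.85, 7.79, 7.23 and 8.29 (3.03, SE 0.17, adjusted p = 2.7e-11). In the whole MYC, MAX and MXD network 6 of 19 genes were higher and 3 lower, a split that became 3 higher and 10 lower with the genes centred. Of the antagonists, Mxd3 was higher (0.89, SE 0.22, adjusted p = 0.0035), whereas Mnt and Mga were lower by 0.63 (SE 0.15, adjusted p = 0.0024) and 0.73 (SE 0.15, adjusted p = 5.8e-04). Max, the shared partner, was not called (-0.27, adjusted p = 0.17).

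Of 41 MYC and MYCN targets of ribosome production, 28 were lower in CRISPR-Ptch1 tumours and 2 higher, with a median of -0.56. Utp4, of the small-subunit processome, read 9.63, 9.53 and 9.90 against 11.37, 11.60, 11.03 and 11.60 and was lower by 1.71 (SE 0.19, adjusted p = 5.4e-07). Gnl3, a nucleolar GTPase of dividing cells, read 10.15, 9.79 and 10.54 against 11.67, 11.85, 11.52 and 11.38 and was lower by 1.44 (SE 0.18, adjusted p = 1.5e-06). Wdr75, needed for transcription of ribosomal DNA, was lower by 1.39 (SE 0.17, adjusted p = 1.6e-06). None of the 3 genes overlapped between the groups, and the TF tumour was nearest to the GTML tumours in each. With the TF tumour as the lone CRISPR-Ptch1 tumour, 8 genes of the list were lower.

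The 2 genes that were higher, Noc3l (0.51, SE 0.18, adjusted p = 0.034) and Exosc5 (0.59, SE 0.22, adjusted p = 0.045), were near the threshold. Of 22 cytosolic ribosomal protein genes, 2, Rpl12 and Rpl14, were lower and none was higher. With the genes centred, 19 of them and 36 of the 41 ribosome production genes were lower, and the difference between the lists was not tested.

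MYC targets of other functions were lower in 16 of 28 cases, in 8 with the TF tumour alone, and higher in 1 (median -0.52), the higher gene being Cdk4 (0.62, SE 0.16, adjusted p = 0.0043). Mthfd2, a mitochondrial dehydrogenase of one-carbon metabolism, read 9.01, 8.37 and 9.49 against 11.02, 11.19, 10.78 and 11.02 and was lower by 2.05 (SE 0.30, adjusted p = 1.4e-05), and the serine hydroxymethyltransferases Shmt1 and Shmt2 were lower by 1.82 (SE 0.23, adjusted p = 2.5e-06) and 0.97 (SE 0.24, adjusted p = 0.0028). Srm, spermidine synthase, read 10.73, 10.39 and 10.95 against 12.38, 12.64, 11.91 and 12.46 and was lower by 1.66 (SE 0.18, adjusted p = 3.8e-07). Cad, which opens pyrimidine synthesis, was lower by 1.13 (SE 0.15, adjusted p = 5.6e-06) and Odc1, the first enzyme of polyamine synthesis, by 0.54 (SE 0.11, adjusted p = 5.6e-04).

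Glycolysis and the hypoxia response were lower in 12 of 24 genes and higher in 2 (median -0.54). Ldha, lactate dehydrogenase A and also a MYC target, read 11.43, 11.38 and 11.68 against 13.21, 13.04, 13.39 and 13.44 and was lower by 1.77 (SE 0.18, adjusted p = 1.5e-07). Pkm, pyruvate kinase, was lower by 1.33 (SE 0.13, adjusted p = 5.5e-08), and Pgk1 by 0.87 (SE 0.13, adjusted p = 1.9e-05). Ndrg1, a hypoxia-induced gene, had the largest fall of the list, with 7.54, 7.57 and 7.24 against 11.46, 10.85, 11.19 and 10.81 (-3.63, SE 0.24, adjusted p = 2.3e-10), while Vegfa was lower by 0.996 (SE 0.29, adjusted p = 0.011). The exceptions were the first enzyme of glycolysis and the other lactate dehydrogenase subunit: Hk2 read 12.32, 11.67 and 11.82 against 10.17, 10.12, 10.08 and 10.45 (1.73, SE 0.19, adjusted p = 2.8e-07), and Ldhb differed by 0.67 (SE 0.22, adjusted p = 0.019). Oxidative phosphorylation had 2 of 22 genes lower and none higher, 4 lower without GTML 3 and 13 with the genes centred.

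**Figure D3:**
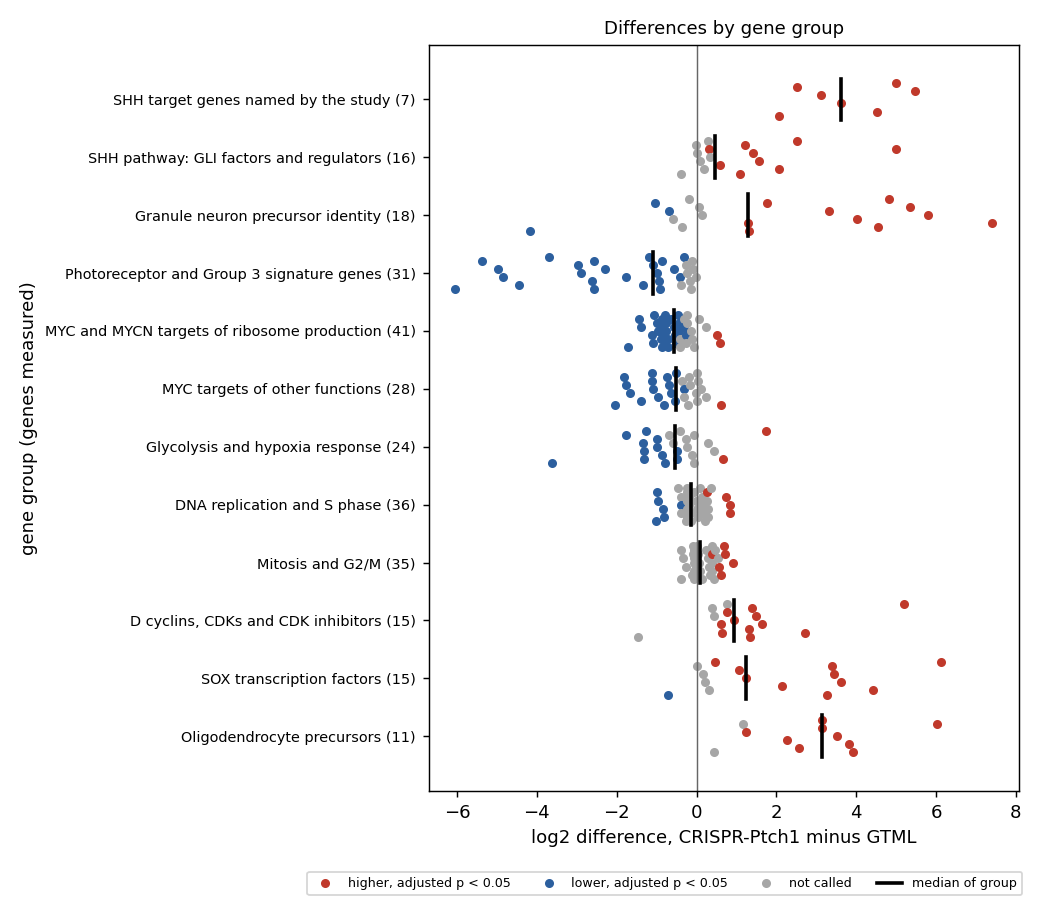
Log2 difference, CRISPR-Ptch1 minus GTML (x axis), of each gene in 12 gene groups (y axis), in red where higher and in blue where lower at an adjusted p under 0.05 and in grey otherwise, with a bar at each group's median and a line at the median of all genes (0.01). SHH targets lie to the right, photoreceptor genes to the left, ribosome production and other MYC targets slightly to the left, and replication and mitosis genes around 0.

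In S phase, 4 of 36 genes were higher and 6 lower, and in mitosis 6 of 35 were higher and none lower. These are shares of 11.1% and 16.7% in S phase and of 17.1% and none in mitosis. Of the mitosis genes 3 were higher and 2 lower without the TF tumour, and 11 were higher without GTML 2. With the genes centred, 20 replication genes and 9 mitosis genes were lower and no mitosis gene was higher. Cdt1, which licenses origins, was lower by 0.97 (SE 0.11, adjusted p = 7.2e-07), and Ccnb2, a mitotic cyclin, was higher by 0.90 (SE 0.25, adjusted p = 0.0076). Pcna read 13.39, 13.36 and 13.38 against 12.87, 13.10, 13.04 and 13.39 and was not called.

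The regulators of the passage from G1 were another matter, with 11 of 15 D cyclins, CDKs and CDK inhibitors higher and none lower (median 0.95), 7 of them higher with GTML 4 as the lone GTML tumour. Cdk6, a partner of the D cyclins, read 11.48, 11.24 and 12.49 against 5.98, 6.19, 5.37 and 8.58 and differed by 5.21 (SE 0.47, adjusted p = 2.4e-08). GTML 4 was the highest GTML tumour and still below every CRISPR-Ptch1 tumour. Ccnd1, an SHH target, read 12.10, 11.86 and 12.77 against 10.79, 11.003, 10.44 and 10.77 (1.49, SE 0.21, adjusted p = 1.3e-05), and Ccnd2 differed by 0.65 (SE 0.20, adjusted p = 0.015).

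Of the 7 genes for inhibitors of these kinases 5 were higher, and Cdkn1a and Cdkn2a were not called. Cdkn2c, which blocks CDK4 and CDK6 and is a known tumour suppressor of the SHH class, read 10.86, 10.92 and 10.91 against 7.77, 7.77, 8.87 and 8.28 (2.73, SE 0.19, adjusted p = 4.4e-10), and Cdkn1b, stained for in the study as p27, read 11.01, 11.20 and 11.43 against 9.64, 9.72, 10.001 and 10.10 (1.34, SE 0.13, adjusted p = 4.6e-08). Rb1 differed by 1.304 (SE 0.11, adjusted p = 6.4e-09). Cdkn2a read 7.26 and 8.36 in the EP tumours, 10.22 in the TF tumour and 10.23, 10.27, 9.82 and 9.97 in GTML tumours. Its adjusted p was 0.13, and the TF tumour lay within the GTML values.

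For Trp53 and its targets, 5 of 21 genes were higher and 4 lower, 5 and 2 without the TF tumour and 4 and 10 with the genes centred. Pmaip1, the BH3-only protein NOXA, read 7.59, 8.02 and 7.37 against 4.76, 3.70, 4.26 and 4.78 (3.28, SE 0.37, adjusted p = 5.0e-07), and Eda2r, a death receptor, 9.32, 9.11 and 8.88 against 7.96, 6.15, 4.79 and 5.94 (2.90, SE 0.47, adjusted p = 5.9e-05). Btg2, an antiproliferative target, was lower, with 8.85, 8.60 and 9.41 against 11.43, 11.77, 12.19 and 11.47 (-2.76, SE 0.27, adjusted p = 6.4e-08). Cdkn1a and Mdm2, the best known targets, were not called (8.40, 8.82 and 9.17 against 9.10, 7.25, 7.48 and 8.29 and 9.92, 9.88 and 9.76 against 9.65, 9.66, 9.93 and 9.80), and their values overlapped between the groups. In the BCL2 family 8 of 14 genes were higher and 2 lower. Bcl2l11 (BIM, 1.66, SE 0.21, adjusted p = 2.4e-06) and Bmf (1.01, SE 0.22, adjusted p = 8.5e-04), both proapoptotic, were among the former. With GTML 4 as the lone GTML tumour, 4 were higher.

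More stem cell and SOX genes were higher than lower in CRISPR-Ptch1 tumours. Of the neural stem and progenitor genes 11 of 22 were higher and 3 lower, and of the SOX factors 10 of 15 and 1 (median 1.25). With the genes centred, these counts were 10 and 6 for the stem and progenitor genes and 9 and 2 for the SOX factors. Sox1 read 9.67, 9.09 and 10.55 in CRISPR-Ptch1 tumours and 3.62, 3.30, 3.40 and 4.28 in GTML tumours, where it was below the lower quartile of each array, a difference of at least 6.12 (SE 0.27, adjusted p = 4.6e-13). Sox2 read 9.45, 9.34 and 10.39 against 7.37, 3.16, 7.07 and 7.76, with GTML 2 far below the other GTML tumours, and differed by 3.39 (SE 0.74, adjusted p = 0.0011). Sox5, Sox8 and Sox9 differed by 3.61 (SE 0.23, adjusted p = 1.2e-10), 3.44 (SE 0.33, adjusted p = 5.1e-08) and 3.26 (SE 0.26, adjusted p = 4.0e-09).

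Sall1 and Msi1, both stem cell genes, went the other way, lower by 2.19 (SE 0.22, adjusted p = 9.0e-08) and 0.74 (SE 0.23, adjusted p = 0.016). Sall1 read 9.17, 8.46 and 7.98 against 10.68, 10.29, 11.08 and 10.87, without overlap. Sox12 was the SOX gene that was lower (-0.71, SE 0.17, adjusted p = 0.0022).

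Genes of oligodendrocyte precursors, astrocytes, mature granule neurons and Purkinje cells were mostly higher in CRISPR-Ptch1 tumours, by the counts given for each. In these bulk samples fewer cells of a type and less of its RNA per cell cannot be told apart, and the part of such cells in the results above was not tested. Oligodendrocyte precursor genes were higher in 9 of 11 cases (median 3.14), with a list mean of 9.10 to 9.42 on CRISPR-Ptch1 arrays and 5.89 to 6.99 on GTML arrays. Pdgfra, the growth factor receptor that defines them, read 12.92, 12.36 and 12.32 against 6.87, 4.62, 6.98 and 7.54 (6.03, SE 0.41, adjusted p = 4.4e-10), Olig1 11.68, 11.17 and 11.60 against 8.10, 5.29, 8.08 and 9.19 (3.82, SE 0.56, adjusted p = 1.6e-05), and Gpr17, of committed precursors, 9.54, 9.80 and 9.24 against 5.86, 5.21, 5.63 and 5.72 (3.92, SE 0.43, adjusted p = 3.9e-07). Of 13 genes of mature myelin 2 were higher and none lower (median 0.32), whereas with GTML 4 as the lone GTML tumour none was higher and 2 were lower (median -1.06). Their median was -0.44 with the TF tumour alone, and 4 were higher without GTML 4.

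Astrocyte and Bergmann glia genes were higher in 17 of 21 cases and lower in none (median 2.20), and in 10 with GTML 4 as the lone GTML tumour. The list mean was 10.18 to 10.67 on CRISPR-Ptch1 arrays and 7.08 to 9.21 on GTML arrays, lowest in GTML 2. Aqp4, the astrocyte water channel, read 12.11, 11.997 and 10.86 against 9.68, 6.09, 9.87 and 10.04 (2.74, SE 0.75, adjusted p = 0.0066), Slc1a3, a glutamate transporter, 11.31, 11.26 and 10.47 against 9.18, 5.37, 8.62 and 8.61 (3.07, SE 0.56, adjusted p = 1.9e-04), and S100b 10.84, 11.11 and 12.76 against 7.79, 5.71, 7.69 and 8.98 (4.03, SE 0.53, adjusted p = 4.4e-06). Gfap did not pass the test, with 10.06, 8.9998 and 9.52 against 9.75, 5.61, 9.62 and 9.16, GTML 2 being far below the other tumours. Slc1a2 (Glt1), whose promoter drives the GTML transgene, was not called (11.13, 11.09 and 11.73 against 12.36, 11.43, 12.05 and 11.68, adjusted p = 0.051).

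Mature granule neuron genes were higher in 16 of 21 cases and lower in 2 (median 2.50), and Purkinje genes in 7 of 10 and none (median 2.45). With the TF tumour as the lone CRISPR-Ptch1 tumour, 10 granule neuron genes and 3 Purkinje genes were higher. Gabra6, a GABA receptor subunit of mature granule neurons, read 9.77 and 11.67 in the EP tumours and 7.84 in the TF tumour against 4.39, 4.42, 3.86 and 3.75 in GTML tumours and 13.83 ± 0.03 in adult cerebella, and the difference between the tumours was 5.66 (SE 0.62, adjusted p = 4.1e-07). Car8, a carbonic anhydrase-related protein of Purkinje cells, read 9.93, 11.50 and 9.36 against 4.43, 3.79, 4.43 and 5.61 (5.70, SE 0.44, adjusted p = 2.3e-09), and Pcp2, another Purkinje gene, 9.51, 11.33 and 8.24 against 8.66, 7.06, 5.51 and 7.06 (2.62, SE 0.56, adjusted p = 8.5e-04), the TF tumour lying below GTML 1. EP 2 was the highest of the CRISPR-Ptch1 tumours in each of the 3 genes.

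These genes did not set CRISPR-Ptch1 tumours apart from GTML tumours alone. Gabra6 read 5.03 ± 1.14 in MERP and 5.21 ± 0.49 in Ptch1+/- tumours, and CRISPR-Ptch1 tumours differed from them by 4.73 (SE 0.60, adjusted p = 6.2e-05) and 4.55 (SE 0.62, adjusted p = 1.6e-05). For Car8 the corresponding differences were 4.998 (SE 0.42, adjusted p = 1.7e-06) and 5.39 (SE 0.44, adjusted p = 1.4e-07), and for Gpr17 2.21 (SE 0.41, adjusted p = 0.0018) and 2.23 (SE 0.43, adjusted p = 3.9e-04). Against MERP, 13.3% of all genes were called, and against Ptch1+/- tumours 36.8%. Gli1 was lower than in MERP (-0.86, SE 0.23, adjusted p = 0.018), whereas Atoh1 and Mycn did not pass the test, with differences of -0.04 (SE 0.28, adjusted p = 0.94) and 0.17 (SE 0.20, adjusted p = 0.62). Zic1 differed from MERP by 0.07 (SE 0.31, adjusted p = 0.91) and from Ptch1+/- tumours by -0.38 (SE 0.33, adjusted p = 0.40). The array controls differed here too. The Gapdh gap was 0.09 to 1.48 on MERP and 0.81 to 1.34 on Ptch1+/- arrays, against -0.08 to -0.02 on CRISPR-Ptch1 arrays. Poly-A spike-ins averaged 8.42 to 10.77 and 8.39 to 9.90, against 7.66 to 7.89. The part of these differences in the contrasts with MERP and Ptch1+/- tumours was not tested.

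**Figure D4:**
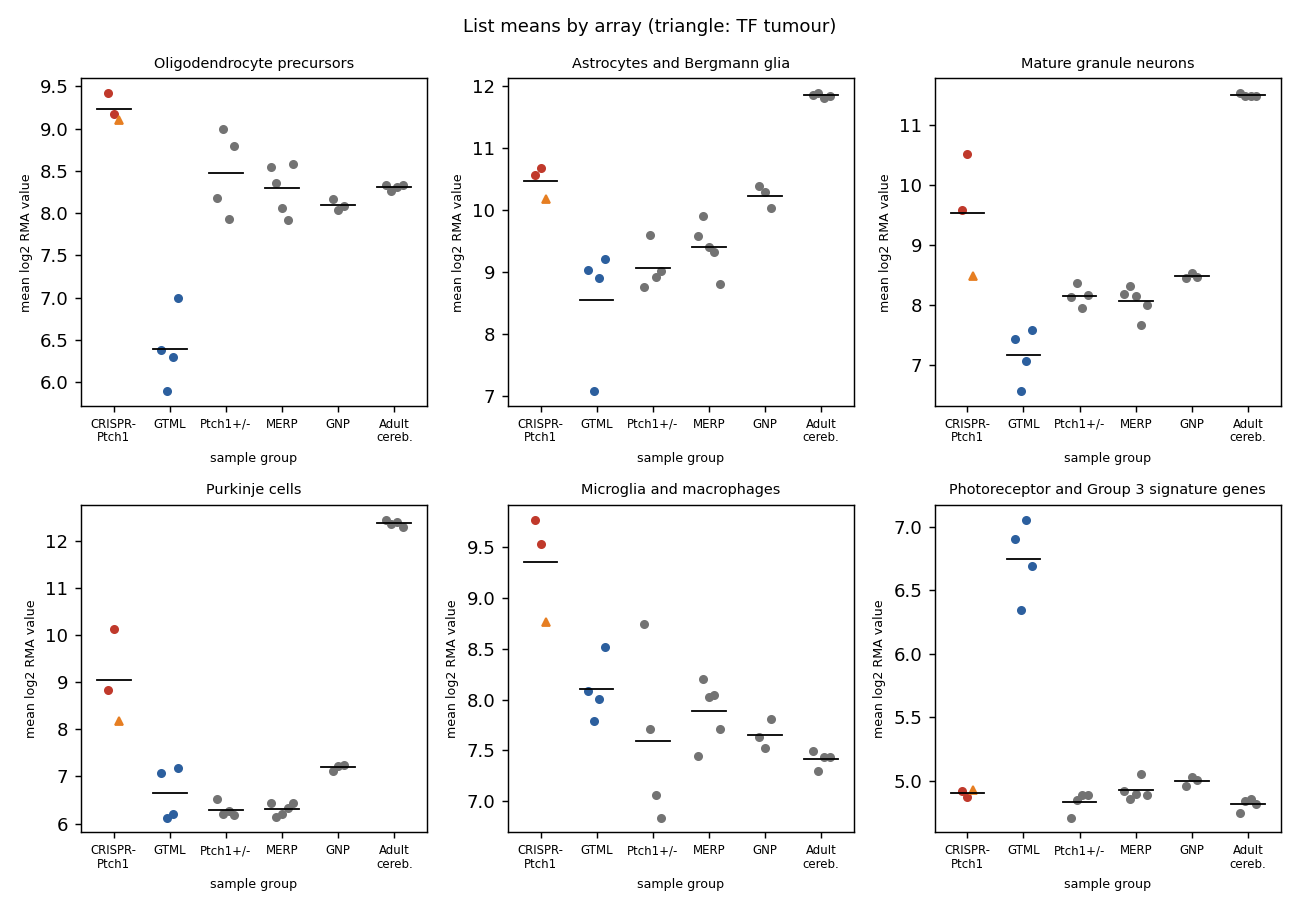
Mean log2 RMA value of 6 gene groups (y axis of each panel) on every array of the 6 sample groups (x axis), 1 point per array, with a bar at the mean of each group. Precursor, astrocyte, granule neuron and Purkinje groups are higher in CRISPR-Ptch1 than in GTML tumours, EP 2 is the highest CRISPR-Ptch1 tumour for the neuronal groups, and the photoreceptor group is high in GTML tumours alone.

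Microglia and macrophage genes were higher in 10 of 15 cases, in 6 without EP 1 or without EP 2, in 2 with the TF tumour alone and in 1 with GTML 4 as the lone GTML tumour. Aif1 read 9.66, 9.73 and 8.80 against 7.15, 6.95, 7.35 and 7.90 (2.06, SE 0.31, adjusted p = 1.9e-05), and P2ry12, of resident microglia, 9.23, 8.51 and 6.78 against 5.63, 4.31, 5.60 and 6.43 (2.68, SE 0.52, adjusted p = 3.7e-04). Endothelial and pericyte genes gave 2 higher and 3 lower of 15, meningeal and fibroblast genes 5 and 4 of 15, and choroid plexus and ependyma genes 2 and 2 of 12. Without the TF tumour 1 endothelial gene was higher and 5 were lower, the meningeal counts were 4 and 1 without EP 2, and 2 meningeal genes were lower without EP 1, without GTML 2 or without GTML 3. With GTML 4 as the lone GTML tumour no choroid plexus gene was higher and 1 was lower (median -0.61 in place of 0.31). Kdr, an endothelial receptor of VEGF, was lower by 1.54 (SE 0.34, adjusted p = 0.0012). Ttr, the main transcript of choroid plexus, read 7.92, 6.94 and 14.23 against 5.78, 4.61, 6.12 and 13.53, very high in the TF tumour and in GTML 4, and was not called. Erythroid, muscle and lymphocyte markers gave 2 calls among 18 genes, both lower.

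Signalling and adhesion genes beyond SHH differed in several groups. In axon guidance and adhesion 16 of 36 genes were higher and 4 lower, 6 and 3 with GTML 4 as the lone GTML tumour. Robo1, a receptor for SLIT proteins, read 10.11, 9.95 and 10.62 against 4.44, 4.14, 5.05 and 5.92 (5.34, SE 0.31, adjusted p = 2.7e-11), and Ntn1, which encodes netrin, 10.72, 10.60 and 9.57 against 5.44, 5.62, 5.59 and 5.71 (4.71, SE 0.28, adjusted p = 3.6e-11). The netrin receptor Dcc differed by 2.99 (SE 0.24, adjusted p = 4.6e-09). Slit2, a ligand of Robo1, was lower, with 5.17, 6.22 and 6.98 against 8.51, 8.63, 9.17 and 8.32 (-2.53, SE 0.52, adjusted p = 6.4e-04).

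In the WNT group 8 of 20 genes were higher and 2 lower, and the list's median of 0.25 turned to -0.12 with the genes centred, where 5 were higher and 7 lower. Sfrp1, described above, was among the higher genes. The feedback antagonist Nkd1 read 10.09, 9.72 and 11.77 against 6.76, 6.27, 6.02 and 6.24 (4.20, SE 0.31, adjusted p = 1.5e-09), and its relative Nkd2 read 5.77, 5.81 and 6.12 against 8.95, 9.13, 9.47 and 9.99 (-3.49, SE 0.18, adjusted p = 4.1e-12), so that 2 paralogues went in opposite directions. Fzd7, a WNT receptor, read 10.84, 10.80 and 11.41 against 5.11, 5.02, 5.38 and 5.62 (5.74, SE 0.25, adjusted p = 4.2e-13). Lef1 was lower by 1.53 (SE 0.21, adjusted p = 6.2e-06) and Axin2, the common WNT target, higher by 0.67 (SE 0.15, adjusted p = 0.0013).

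NOTCH genes were higher in 7 of 19 and lower in 3 cases, and the median of 0.31 turned to -0.06 with the genes centred. Notch2, a receptor found in granule neuron precursors, read 9.16, 8.90 and 9.18 against 5.10, 5.68, 6.26 and 6.35 (3.23, SE 0.26, adjusted p = 4.2e-09), and the targets Hes1 and Hey1 differed by 2.49 (SE 0.37, adjusted p = 2.1e-05) and 2.91 (SE 0.19, adjusted p = 2.2e-10). Hes6, which opposes HES1, was lower by 1.48 (SE 0.17, adjusted p = 6.4e-07). In the BMP group 9 of 18 were higher and 2 lower, 5 and 1 with GTML 4 as the lone GTML tumour. Id2, an inhibitor of basic helix-loop-helix factors, read 11.88, 12.05 and 12.31 against 8.77, 6.78, 8.12 and 9.16 (3.87, SE 0.35, adjusted p = 2.4e-08), and Bmp7 was lower by 2.14 (SE 0.18, adjusted p = 9.5e-09).

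Of 28 receptors and channels, 8 were higher and 6 lower, and 6 of the higher ones encode glutamate receptor subunits. Gria1, Gria2, Gria3 and Gria4 differed by 2.77 (SE 0.57, adjusted p = 6.3e-04), 2.04 (SE 0.35, adjusted p = 1.1e-04), 2.64 (SE 0.43, adjusted p = 6.2e-05) and 2.92 (SE 0.28, adjusted p = 5.5e-08). Gabra5, a GABA receptor subunit also counted among the Group 3 genes, read 3.14, 3.49 and 3.07 against 5.83, 5.71, 5.83 and 6.05 and was lower by 2.62 (SE 0.19, adjusted p = 1.1e-09). Nefh, the heavy neurofilament, read 6.06, 7.73 and 5.15 against 10.33, 12.01, 9.97 and 11.68 (-4.69, SE 0.49, adjusted p = 1.9e-07) and led the 6 lower genes among 26 of neuronal differentiation, of which 7 were higher (2 lower and 11 higher without the TF tumour, 9 lower and 3 higher with it alone). Gap43, of growing axons, was the largest of the latter (4.24, SE 0.46, adjusted p = 2.8e-07).

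Among the other gene groups, the calls were spread over both directions or few: chromatin regulators (3 higher and 6 lower of 25), immediate early genes (3 and 2 of 15), interferon-stimulated genes (2 and 0 of 13), antigen presentation (4 and 0 of 14), cholesterol synthesis (2 and 2 of 17), the primary cilium (5 and 6 of 27), the insulin-like growth factor axis (3 and 4 of 14), the inhibitory lineage (3 and 2 of 17, 6 higher without GTML 4) and HOX and axial genes (3 and 5 of 23). In the cilium group Bbs2, of the BBSome, had the largest fall (1.16, SE 0.22, adjusted p = 3.4e-04) and Ift27, of intraflagellar transport, the largest excess (1.22, SE 0.23, adjusted p = 2.9e-04) among the called genes. Without EP 2, 3 cilium genes in place of 6 were lower, and with the genes centred 2 were higher and 13 lower. Interferon-stimulated genes had 4 higher without EP 1, and HOX genes 3 in place of 5 lower without EP 2, without the TF tumour or without GTML 1. With the genes centred, 12 chromatin, 7 immediate early, 7 cholesterol synthesis, 6 inhibitory lineage and 13 HOX genes were lower.

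Genes outside the lists completed the leaders in CRISPR-Ptch1 tumours. Cavin2, of caveolae, read 11.68, 11.57 and 12.08 against 5.36, 5.75, 5.52 and 5.82 (6.16, SE 0.49, adjusted p = 3.8e-09), Gpr153, an orphan receptor, 11.67, 11.13 and 11.79 against 5.56, 6.40, 6.18 and 5.68 (5.58, SE 0.23, adjusted p = 1.7e-13), and E130114P18Rik 10.59, 10.17 and 11.14 against 4.23, 3.85, 4.85 and 4.28 (6.33, SE 0.22, adjusted p = 1.1e-14). The leaders in GTML tumours included Lamp5 (4.86, 4.38 and 4.23 against 11.38, 11.17, 9.98 and 9.81), Gdpd3 (6.44, 5.88 and 6.40 against 12.40, 11.47, 12.56 and 11.51) and the loci Gm9918 and 4930447C04Rik, lower in CRISPR-Ptch1 tumours by 5.96 (SE 0.13, adjusted p = 2.5e-18) and 6.11 (SE 0.26, adjusted p = 3.2e-13).

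The CRISPR-Ptch1 tumours were not alike in every gene. With EP and TF as separate groups of the fit, a comparison added after seeing the data, 453 genes (2.49%) differed, 302 higher in the EP tumours and 151 in the TF tumour, which is a single array taken to vary like the other groups. Olig3, a rhombic lip factor, read 10.73 and 11.07 in the EP tumours, 4.26 in the TF tumour and 4.09, 4.13, 4.31 and 4.40 in GTML tumours, so that only the EP tumours lay above the GTML level (EP minus TF 6.64, SE 0.83, adjusted p = 1.7e-04). Dll3, a NOTCH ligand, read 7.77 and 7.10 in EP, 11.38 in TF and 8.43, 9.78, 9.35 and 9.05 in GTML tumours, the EP tumours lying below the GTML tumours and the TF tumour above them (-3.95, SE 0.73, adjusted p = 0.0059). Neurod4, a proneural factor, read 8.89 and 8.45 in EP, 5.52 in TF and 10.21, 8.22, 10.73 and 10.56 in GTML tumours (3.15, SE 0.73, adjusted p = 0.025).

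Of 13 interferon-stimulated genes, 2 were higher and 2 lower than in GTML tumours with the EP tumours alone. The list's median difference was -0.40 with the EP tumours alone and 1.54 with the TF tumour alone, a contrast that was not itself tested. The list mean was 6.35 and 6.40 in the EP tumours, 8.05 in the TF tumour and 5.55 to 7.53 in the GTML tumours, highest in GTML 4. Samd9l, an interferon-induced gene, read 5.80 and 6.09 in EP, 10.55 in TF and 6.12, 6.03, 6.76 and 7.60 in GTML tumours (-4.61, SE 0.62, adjusted p = 4.0e-04), and Usp18, a deubiquitinase that interferon induces, 4.91 and 4.995 in EP, 8.65 in TF and 6.08, 4.61, 6.18 and 7.92 in GTML tumours (-3.70, SE 0.72, adjusted p = 0.0082). Lcn2, an inflammation-induced lipocalin, read 11.24 and 10.87 in EP, 5.15 in TF and 6.61, 4.52, 7.03 and 6.70 in GTML tumours (5.90, SE 1.19, adjusted p = 0.01). Of the SHH targets, none passed this test, the nearest being Sfrp1 with -1.73 (SE 0.51, adjusted p = 0.083). Route, genotype and age at induction cannot be told apart in these differences.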

How the data were processed

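Total RNA of 23 samples (7 of them compared here) was measured on whole-genome mouse arrays of Affymetrix. The values were deposited by the authors as log2 RMA values made with Affymetrix Expression Console 1.3.1 per the labels' processing notes. Which arrays were normalized together is not given in the sources used here. RMA equalizes distributions over all probe sets, and the gene medians still differed between the groups.

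Groups were taken from the sample labels. Of 45101 probe sets, 34958 had 1 gene symbol, 932 had several and 9211 had none in the platform annotation, and symbols were updated through RefSeq gene IDs (34754 probe sets matched). Each gene was represented by its brightest probe set (mean of the 23 arrays), giving 18194 genes. All 23 arrays in 6 groups entered 1 linear model (limma 3.58.1, R 4.3.3, lmFit and eBayes, no covariates), and p-values were adjusted by Benjamini-Hochberg over all genes, with a threshold of 0.05. In data simulated for this comparison, 200 of 18194 genes were changed. Recovered were 16.4% of those changed by 0.5, 77.6% of those changed by 1 and 98.5% of those changed by 2 (log2), with 9 false calls. Since 6689 genes were called in the real data, the adjusted threshold was stricter in the simulation, and these shares do not carry over. The number of arrays limits the precision.

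The arrays, genes and 50 gene lists were chosen with earlier results of these data known. Named genes were the 12 leading genes in each direction whose values do not overlap, the leading called genes of each list in each direction, the genes the study targets or stains for and the first 4 genes of each cell type list, and which of them, and which uncalled genes, are printed was decided after their values were seen. Group means near the lower quartile of an array were read as near background, also after seeing the data. Alternatives changed the normalization, the probe set of a gene, the filter on dim genes, the variance model, the arrays in the fit, the threshold, the route of delivery, a replicate block and each array in turn. Promoters were searched with Python 3.11.15 in RefSeq sequences, on both strands.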

Additional observations from a re-analysis of the deposited data

Results flagged for a closer look

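Among the 4 GTML tumours, 11 of the 174 printed genes had 1 tumour set apart from the other three by a gap, taken over the group's range, above Dixon's critical value, and chance flags about 1 in 20 groups. GTML 2 was the low tumour in 8 of them: Abca4 (9.73), Aqp4 (6.09), Gfap (5.61), Gria2 (7.98), Lcn2 (4.52), Slc1a3 (5.37), Sox2 (3.16) and Pkm, where it read 11.57. Lef1 read 7.15 in GTML 3, Ttr 13.53 in GTML 4 and Zic5 11.15 in GTML 1.

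Of the 453 genes that differed between the EP tumours and the TF tumour by the test of that difference, 12 are among the printed genes. EP minus TF was 6.64 for Olig3, 5.90 for Lcn2, 3.15 for Neurod4, 2.70 for Eomes, 1.90 for Neurod1, 1.65 for Cdon and 1.31 for Zic4 on the log2 scale. It was -4.61 for Samd9l, -3.95 for Dll3, -3.70 for Usp18, -1.99 for Hes1 and -1.87 for Nkd1. The TF tumour is a single array taken to vary like the other groups.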

How the results depend on the processing

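Of 6689 called genes, the count was 10481 with the genes centred, 2670 at a difference of at least 2-fold, 3930 with the TF tumour alone and 3702 with GTML 4 alone, an alternative added after seeing the data. It was 4505 with only the 7 arrays in the fit and ranged from 5382 to 6895 when 1 array was left out. The other alternatives stayed within 1.5 times. The share of called genes that were higher in CRISPR-Ptch1 tumours was 61.7% and fell to 22.0% with the genes centred. It was 71.0% at a difference of at least 2-fold and 52.2% with GTML 4 alone. Numbers in the titles did not pair the samples (correlation of deviations 0.10 for EP 1 with GTML 1 and -0.28 for EP 2 with GTML 2), and a replicate block left 5734 called genes. Array weights stopped before they converged. Of the 174 printed genes, 144 were called, and the sign of 3 of these turned under at least 1 alternative: Lcn2 with the TF tumour alone (-1.06), and Ptch1 (-0.66) and Noc3l (-0.11) with the probe set of highest SD. Of the 30 that were not called, the sign of 23 turned under at least 1 alternative. Among these, Dll3 (2.23) and Usp18 (2.45) with the TF tumour alone and En2 with the genes centred (-0.36) were called under the alternative. Of the 50 list medians, 29 changed sign under at least 1 alternative, 13 with the genes centred, 13 with GTML 4 alone and 7 with the TF tumour alone. With the genes centred these were WNT (-0.12), NOTCH (-0.0592), antigen presentation (-0.0680), the inhibitory lineage (-0.16), mitosis (-0.29), Trp53 targets (-0.30), neuronal differentiation (-0.29), myelin (-0.0485), meninges (-0.22), choroid plexus (-0.0619), cholesterol synthesis (-0.32), cilium (-0.34) and receptors and channels (-0.35). Antigen presentation also turned with array weights (-0.00507) and GTML 4 alone (-0.0242), DNA replication with the TF tumour alone (0.0068), HOX genes without dim genes (0.0101) and sex-linked genes under the replicate block (-0.21). The cause was not tested. In simulated data with 200 changed genes, a difference of 0.5 on the log2 scale was mostly missed. The adjusted threshold was stricter there than in the real data, so this does not carry over to the calls above. Levels near background give only limits.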
